A study of Mus musculus with 6 samples.

Results

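The normal brain microvessel transcriptome was described here from the 3 WT mice of the TEKCRIF1 strain, gene by gene. Genes were taken when their mean over the 3 WT libraries was at least 1 FPKM, a count of fragments divided by exon length and library depth, and 14154 of the 23183 gene symbols listed met this rule. The series holds 6 libraries, of which the 3 from mice with an endothelial *Crif1* deletion entered no step here. The WT mice were *Crif1*+/+ animals of the C57BL/6 background that carried TEK-cre, so the Cre recombinase driven by the Tek promoter was present in them as well, and they were untreated. Tek is active in endothelial cells and also in part of the blood lineage, which limits these animals as a model of vessels without any transgene. Their ages and sexes are not given in the sources used here. Brain tissue was homogenised, centrifuged in dextran and passed over a strainer, and the material retained was lysed as a whole without sorting, 1 library per mouse. In what follows, 3 values given in a row belong to WT 1, WT 2 and WT 3 in that order.

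The blood–brain barrier is formed by endothelial cells that are sealed by tight junctions, carry few vesicles and move nutrients through dedicated carriers. Pericytes lie in the basement membrane around capillaries, smooth muscle cells surround arteries and arterioles, and astrocyte endfeet cover the outer surface. Fibroblasts and macrophages accompany the larger vessels and the meninges, and choroid plexus and ependyma line the ventricles.

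The depth, estimated from the spacing of the smallest FPKM values, was 11200000, 8700000 and 11100000 fragments. A transcript of 1 kb covered by 3 fragments would then have 0.269, 0.343 and 0.270 FPKM, and for a gene listed at 0 a level up to about that value was not detectable. This floor covers counting error only. On log2(FPKM + 1), the Pearson correlation across the 14154 genes was 0.943 between WT 1 and WT 2, 0.935 between WT 1 and WT 3 and 0.940 between WT 2 and WT 3, where genes are not independent replicates. The median difference between 2 mice was at most 0.013 on this log2 scale. The deviation of a gene from its mean over the mice had a Spearman correlation with the GC content of its transcript of -0.11, 0.17 and -0.04 across 13646 genes, given as a description. WT 3 had the highest levels of pituitary hormone transcripts and WT 1 those of most smooth muscle transcripts, as described below. With 1 group of 3 mice no test between groups exists, and the spread between mice is given as SD or as the single values.

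RNA was spread over many genes, and the level of a typical gene was close to 10 FPKM. The median of the 14154 means was 9.58 FPKM, with 12958 genes at 1 FPKM or above in every mouse. By level, 4262 genes had a mean between 1 and 5 FPKM, 6052 between 5 and 20 FPKM, 3242 between 20 and 100 FPKM, 562 between 100 and 1000 FPKM and 36 at 1000 FPKM or more. The 10 genes with the highest means held 10.3% of all FPKM and the 100 highest held 29.6%, with 29.7%, 31.6% and 27.4% in the 3 mice. Of these 100 genes, 48 encode cytosolic ribosomal proteins.

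The highest gene was *Ptgds*, which encodes the lipocalin-type prostaglandin D synthase of meninges and choroid plexus. It measured 17642, 15337 and 9086 FPKM (14022 ± 4427, SD, n = 3) and lies at chr2:25466709-25470046 on the minus strand. *Lars2*, the mitochondrial leucyl-tRNA synthetase gene at chr9:123366927-123462666 on the plus strand, followed with 8516, 14379 and 7036 FPKM. *Ptgds* was the higher of them in each mouse, but their ranges over the mice overlapped. Reads were not used here, so the mapping of the fragments counted under *Lars2* was not examined.

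Below them stood genes of blood, lipid transport and choroid plexus. *Hbb-b1*, a beta globin, had 4058, 3093 and 2999 FPKM, *Apoe*, the apolipoprotein of astrocytes and macrophages, 3709, 2875 and 2365 FPKM, and *Ttr*, the transthyretin secreted by choroid plexus, 3093, 2722 and 2628 FPKM. *Hbb-b1* was the highest of the 3 in each mouse, although their ranges over the mice overlapped, and *Ttr* exceeded *Apoe* in WT 3 alone. *Bsg*, which encodes basigin, the glycoprotein that escorts monocarboxylate carriers to the cell surface, was the highest gene of the barrier and transporter lists at 2471, 2356 and 2203 FPKM.

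The other genes among the 25 highest were mostly genes of translation and cell maintenance. The ribosomal protein genes *Rpl41*, *Rps14*, *Rpl38*, *Rpl28*, *Rps27rt*, *Rplp1* and *Rps29* had means from 1266 to 2027 FPKM, and the elongation factor gene *Eef1a1* had 2620 ± 188 FPKM. *Tpt1*, *Malat1*, *Nnat*, *Tmsb10*, *Tmsb4x*, *Fth1* and *Cst3* had means from 1297 to 1931 FPKM with SDs from 36.4 to 219 FPKM. *Gnas*, the stimulatory G protein alpha subunit, was higher in WT 3 at 1868 FPKM than in the other two mice at 1125 and 1057 FPKM. *Hba-a1*, an alpha globin, had 2215, 1359 and 1630 FPKM. The small nucleolar RNA *Snord49b* was listed at 0 in WT 1 and WT 3 and at 8069 FPKM in WT 2.

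**Figure D1:**
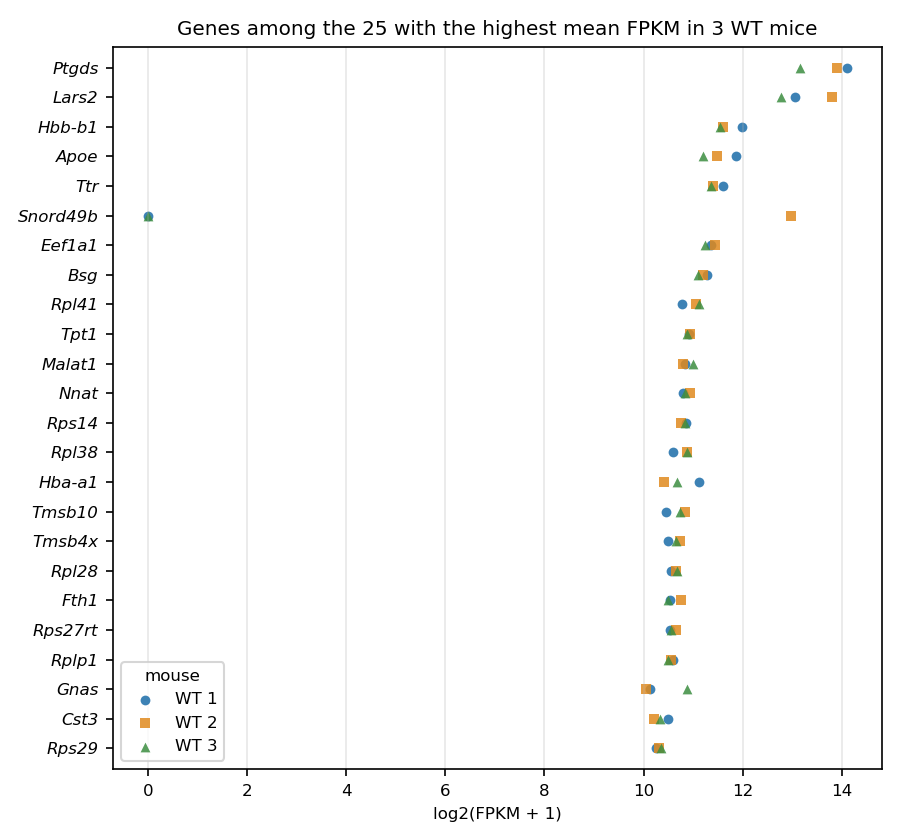
Genes among the 25 with the highest mean level, with log2(FPKM + 1) on the horizontal axis and 1 symbol per WT mouse. The widest spread is that of *Snord49b*, listed at 0 in WT 1 and WT 3 and at 8069 FPKM in WT 2, followed by *Lars2*, from 7036 to 14379 FPKM, and *Ptgds*, from 9086 to 17642 FPKM.

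Markers of endothelial cells, pericytes and astrocytes were all expressed. *Cldn5*, the main claudin of the barrier, at chr16:18776847-18778262 on the plus strand, measured 563, 702 and 462 FPKM. *Slc2a1*, the GLUT1 glucose carrier at chr4:119108711-119137983, measured 349, 197 and 164 FPKM. *Pecam1*, the endothelial adhesion molecule CD31 at chr11:106654217-106750628, had 90.9, 69.6 and 55.8 FPKM. *Abcb1a*, the P-glycoprotein efflux pump gene at chr5:8660077-8748575, had 46.8, 40.2 and 28.7 FPKM. WT 3 was the lowest mouse for each of these 4 genes. The pericyte receptor gene *Pdgfrb* had 45.5, 45.6 and 36.9 FPKM and the endfoot water channel gene *Aqp4* 40.4, 27.1 and 44.1 FPKM, with WT 2 lowest for *Aqp4*.

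All 29 genes of the endothelial list were over 1 FPKM, and their median was 54.8 FPKM with an SD of 3.31 FPKM between the medians of the mice. The highest besides *Cldn5* and *Slc2a1* were *Pltp*, a phospholipid transfer protein gene, at 459 ± 88.8 FPKM, *Itm2a* at 195 ± 57.3 FPKM and *Ramp2*, the adrenomedullin receptor subunit gene, at 174 ± 13.6 FPKM. *Cdh5*, which encodes the endothelial cadherin, was steady at 86.7, 92.4 and 91.3 FPKM. *Tek* itself, whose promoter drives the Cre, had 44.2, 41.7 and 35.1 FPKM.

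Mural cells were present with their own markers. The 16 pericyte genes had a median of 26.4 FPKM, led by *Vtn*, which encodes vitronectin, at 995, 815 and 586 FPKM and by *Rgs5*, a regulator of G protein signalling, at 185, 171 and 114 FPKM. The second defining marker, *Kcnj8*, a subunit of the ATP-sensitive potassium channel, had 18.7 ± 1.38 FPKM. *Higd1b*, *Atp13a5* and *Zic1* had 25.2 ± 7.39, 22.2 ± 5.37 and 45.7 ± 10.6 FPKM. The 14 arterial smooth muscle genes had a median of 15.6 FPKM, and all but *Myocd*, which encodes the myocardin co-activator and had 0.943, 0.435 and 0.666 FPKM, exceeded a mean of 1 FPKM.

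Transcripts of fibroblasts had the highest median of the 14 cell type lists, at 184 ± 39.8 FPKM against 54.8 ± 3.31 FPKM for the endothelial list. The fibroblast list was led by *Igf2*, a growth factor of meninges, at 1065, 1090 and 698 FPKM, and by the collagen genes *Col1a1* at 812, 765 and 577 FPKM and *Col1a2* at 717, 625 and 436 FPKM. *Mgp*, the matrix Gla protein gene, had 548, 302 and 318 FPKM. The proteoglycan gene *Dcn* and the GABA carrier gene *Slc6a13*, both typical of leptomeningeal and perivascular fibroblasts, had 184 ± 34.7 and 183 ± 53.7 FPKM. In every mouse the median of this list was higher than that of the endothelial list, by 4.05, 3.70 and 2.95 times.

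Choroid plexus and ependyma contributed as well. Besides *Ttr*, the choroid plexus list held *Enpp2*, the autotaxin gene, at 382, 181 and 205 FPKM, the folate receptor gene *Folr1* at 129 ± 20.2 FPKM and *Sostdc1* at 90.8 ± 17.6 FPKM, with a median of 35.6 FPKM over its 15 genes. *Kcne2* and *Otx2*, a potassium channel subunit and a transcription factor of this epithelium, were steady at 35.6 ± 3.38 and 22.9 ± 1.47 FPKM. The 9 ependymal genes had a median of 32.2 FPKM. Among them *Foxj1*, the regulator of motile cilia, had 42.4, 52.3 and 49.7 FPKM, *Rarres2* had 65.1 ± 15.1 FPKM and *Ccdc153* 51.5 ± 9.35 FPKM.

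Astrocytic and neuronal genes were also expressed, and most myelin genes were lower. The 17 astrocyte genes had a median of 33.7 ± 6.70 FPKM and the 24 neuronal genes a median of 28.0 ± 7.71 FPKM, a difference smaller than the spread between mice. *Gja1*, the gap junction gene of astrocytes, had 267 ± 11.96 FPKM, *Gfap* 183 ± 17.4 FPKM and *Gjb6* 97.5 ± 31.6 FPKM. Among neuronal genes the maternally expressed RNA *Meg3* had 758 ± 87.7 FPKM, *Nrgn*, a calmodulin-binding protein gene of dendrites, 510 ± 148 FPKM and *Syp*, the synaptophysin gene, 192 ± 56.1 FPKM. The oligodendrocyte list had a median of 7.09 ± 1.48 FPKM. It held *Cldn11* at 149 ± 20.8 FPKM and reached down to *Ermn*, at 0.170 FPKM in WT 1, 0 in WT 2 and 0.626 FPKM in WT 3. *Pdgfra*, first of the 6 precursor markers, had 31.1, 22.1 and 18.8 FPKM, and that receptor is shared with fibroblasts.

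Genes of brain-resident macrophages were detected, and several lymphocyte genes were listed at 0. The 20 microglial genes had a median of 14.04 ± 0.741 FPKM, with *Cx3cr1*, the fractalkine receptor gene, at 14.9, 14.7 and 17.2 FPKM and the complement genes *C1qa*, *C1qb* and *C1qc* at 51.9 ± 13.1, 47.5 ± 6.85 and 60.6 ± 5.07 FPKM. The 10 perivascular macrophage genes had a median of 12.9 ± 1.84 FPKM, with the mannose receptor gene *Mrc1* at 34.0, 30.2 and 21.9 FPKM and *Pf4* at 32.2 ± 7.81 FPKM. In the leukocyte and platelet list the median was 1.12 FPKM, and 9 of its 17 genes were over the filter. Among these were genes of neutrophils, with *S100a9* at 4.64, 11.8 and 7.68 FPKM, *S100a8* at 0, 9.79 and 7.79 FPKM and *Ngp* at 2.81 ± 1.23 FPKM, and *Plac8* had 4.02 ± 2.61 FPKM. The T cell genes *Cd3e* and *Cd8a* and the B cell gene *Ms4a1* were listed at 0 in all 3 mice, *Cd3g* had 0.786 FPKM in WT 3 and was listed at 0 in the other two mice, *Cd4* had 0.889, 1.54 and 1.74 FPKM, and the pan-leukocyte gene *Ptprc* had 1.37, 0.637 and 1.35 FPKM.

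Red blood cell transcripts were abundant. *Alas2*, the first enzyme of haem synthesis in erythroid cells, measured 210, 108 and 124 FPKM, and *Slc4a1*, the band 3 anion exchanger gene, 13.3, 4.22 and 11.5 FPKM. *Hbb-b2* measured 1039, 693 and 698 FPKM. The globin genes share near-identical copies, and the division of fragments among them is uncertain. *Hba-a2* was listed at 0.0269, 255 and 0.0272 FPKM and *Hbb-bs* at 0, 126 and 10.6 FPKM.

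**Figure D2:**
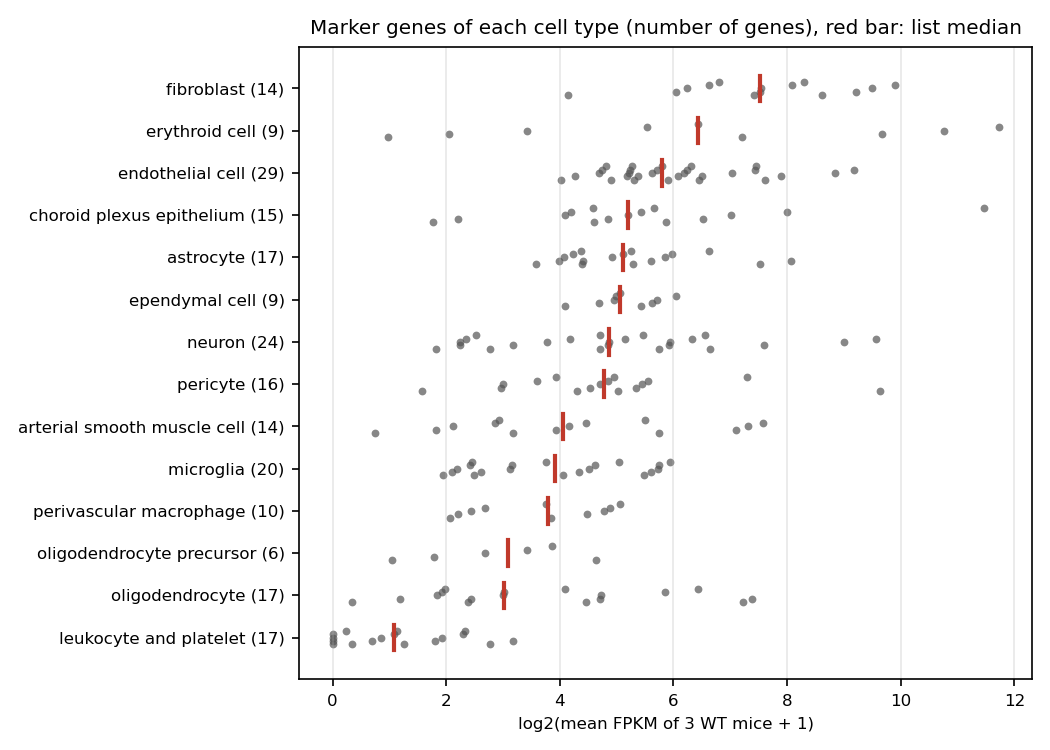
Marker genes of 14 cell types, 1 grey point per gene at log2 of its mean FPKM over the 3 WT mice plus 1, with a red bar at the list median. The fibroblast list has the highest median, 184 FPKM, the endothelial list stands at 54.8 FPKM and the leukocyte and platelet list is lowest at 1.12 FPKM.

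The vessels spanned arteries, capillaries and veins by their endothelial zonation markers. The 12 capillary genes had a median of 63.6 FPKM, the 13 venous genes 27.4 FPKM and the 16 arterial genes 18.5 FPKM. *Spock2*, *Cxcl12* and *Car4* of the capillary list had 319 ± 43.7, 124 ± 22.2 and 60.3 ± 12.7 FPKM. Of the venous list, *Slc38a5*, an amino acid carrier, had 68.1 ± 15.4 FPKM and *Selp*, the P-selectin gene, 0.497, 0.160 and 0.395 FPKM. Of the arterial list, *Gja4*, a connexin gene, had 57.9 ± 8.71 FPKM, the alkaline phosphatase gene *Alpl* 50.9 ± 2.89 FPKM, *Gkn3* 38.7 ± 15.0 FPKM and *Dll4*, a Notch ligand gene, 12.6 ± 3.60 FPKM. *Mgp* and *Stmn2* of the arterial list and *Rgs5* of the capillary list are also markers of fibroblasts, neurons and pericytes in the lists used here.

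Tight junction genes were dominated by *Cldn5*. Of 23 claudin genes listed, 10 were over 1 FPKM on average and 7 were listed at 0 in all 3 mice. After *Cldn5* at 576 ± 121 FPKM came *Cldn11*, a claudin of myelin and meninges, at 149 ± 20.8 FPKM and *Cldn2*, of choroid plexus, at 27.9 ± 3.69 FPKM, followed by *Cldn1* and *Cldn12* at 13.2 ± 3.12 and 11.01 ± 2.10 FPKM. *Cldn3* measured 4.57 and 4.90 FPKM in WT 1 and WT 2 and 16.9 FPKM in WT 3. The other genes of the junction had intermediate levels. *Ocln*, the occludin gene, had 23.5 ± 5.10 FPKM, *Tjp1*, the ZO-1 scaffold gene, 64.3 ± 10.6 FPKM, *Lsr*, the tricellular receptor gene, 69.7 ± 7.86 FPKM and *Cgnl1*, which encodes paracingulin, 70.6 ± 7.17 FPKM. The 6 adherens junction genes had a median of 70.0 FPKM and were led by *Ctnnb1*, the beta-catenin gene, at 245 ± 19.0 FPKM.

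Vesicle transport genes included both the caveolar coat and its suppressor. *Cav1* had 70.5 ± 15.4 FPKM and *Ptrf*, which encodes cavin-1, 198 ± 39.7 FPKM. *Mfsd2a*, the lysolipid carrier that holds transcytosis low, had 29.8, 37.0 and 37.0 FPKM. *Plvap*, the diaphragm protein of fenestrated vessels that barrier capillaries lack, measured 5.99, 10.6 and 22.1 FPKM, highest in WT 3. The receptor genes *Tfrc*, *Lrp1* and *Scarb1* had 44.7 ± 5.34, 86.7 ± 6.77 and 36.1 ± 4.07 FPKM.

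Regulators of the barrier were expressed at moderate levels. Among 20 transcription factor genes, 19 were over 1 FPKM, with *Epas1*, a hypoxia-inducible factor, at 123 ± 13.03 FPKM, *Sox18* at 51.7 ± 9.18 FPKM, the flow-responsive *Klf2* at 49.0 ± 8.85 FPKM and *Ets1* at 31.5 ± 3.04 FPKM. The forkhead genes *Foxq1* and *Foxf2* had 23.0 ± 3.22 and 17.3 ± 3.98 FPKM. All 20 signalling receptor genes were over 1 FPKM, led by *Eng*, the endoglin co-receptor gene, at 130 ± 9.65 FPKM and *Kdr*, the main VEGF receptor gene, at 67.0 ± 11.6 FPKM. The Wnt receptor genes *Fzd4* and *Fzd6* had 11.8 ± 1.73 and 27.9 ± 2.86 FPKM and the Norrin co-receptor gene *Tspan12* 14.9, 5.13 and 9.03 FPKM. *Notch1* and *Notch4* had 16.1 ± 1.75 and 12.99 ± 2.72 FPKM.

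Most transporter genes were expressed, with energy and amino acid carriers at the top. Over the filter were 261 of 373 solute carrier symbols, 7 of 15 organic anion transporting polypeptides and 35 of 50 ABC transporters. Among all 23183 symbols 14154 were, so nothing particular to these families is read from the counts. Over all symbols of these families, the 10 highest held 3 mitochondrial carriers: *Slc25a4* and *Slc25a5*, which exchange ADP and ATP, at 404 ± 5.97 and 177 ± 12.8 FPKM, and the phosphate carrier gene *Slc25a3* at 202 ± 3.20 FPKM. At the plasma membrane *Slc2a1* averaged 237 ± 98.7 FPKM and *Slc16a1*, the lactate and pyruvate carrier MCT1, 214 ± 37.1 FPKM. Their ranges, 164 to 349 and 179 to 253 FPKM, overlapped. *Slc22a17*, the lipocalin receptor gene, had 181, 205 and 234 FPKM.

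Amino acid carriers were led by *Slc38a3*, a glutamine carrier, at 153, 132 and 143 FPKM, and by the 2 chains of the LAT1 carrier of large neutral amino acids, *Slc7a5* at 126, 155 and 137 FPKM and *Slc3a2* at 135, 143 and 120 FPKM. These 3 genes differed from each other by less than the spread between mice. The fibroblast marker *Slc6a13* and *Slc13a4*, a sulphate carrier of choroid plexus and meninges, were both among the 10 highest transporters. They had 232, 191 and 126 FPKM and 191, 152 and 121 FPKM, with the order WT 1, WT 2, WT 3 in both.

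Among thyroid hormone and organic anion carriers, *Slco1c1* was the steadiest of those named here. *Slco1c1*, the thyroxine carrier OATP1C1, had 115, 110 and 120 FPKM, *Slc22a8*, the organic anion exporter OAT3, 113, 116 and 81.5 FPKM and *Slco1a4* 60.4, 44.0 and 36.6 FPKM. Of the drug efflux pumps, *Abcg2*, the breast cancer resistance protein gene, had 43.4, 43.3 and 31.2 FPKM, a range that overlapped with that of *Abcb1a*. The second P-glycoprotein gene of the mouse, *Abcb1b*, stayed under the filter at 0.582, 0.376 and 1.72 FPKM.

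Lipid, vitamin and metal carriers followed. *Fabp5*, a fatty acid binding protein gene, had 62.4, 79.4 and 108 FPKM, *Slc27a1*, a fatty acid carrier, 42.7 ± 3.80 FPKM, the vitamin B12 carrier protein gene *Tcn2* 75.2 ± 18.0 FPKM, and *Stra6*, the retinol receptor gene, 53.8 ± 7.79 FPKM. Of metal carriers the magnesium carrier gene *Slc41a1* had 78.3 ± 10.2 FPKM and the zinc carrier genes *Slc39a7* and *Slc39a1* 62.2 ± 4.02 and 56.4 ± 5.76 FPKM. *Slco1a6*, *Slc5a2* and *Slc28a1* were listed at 0 in all 3 mice.

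**Figure D3:**
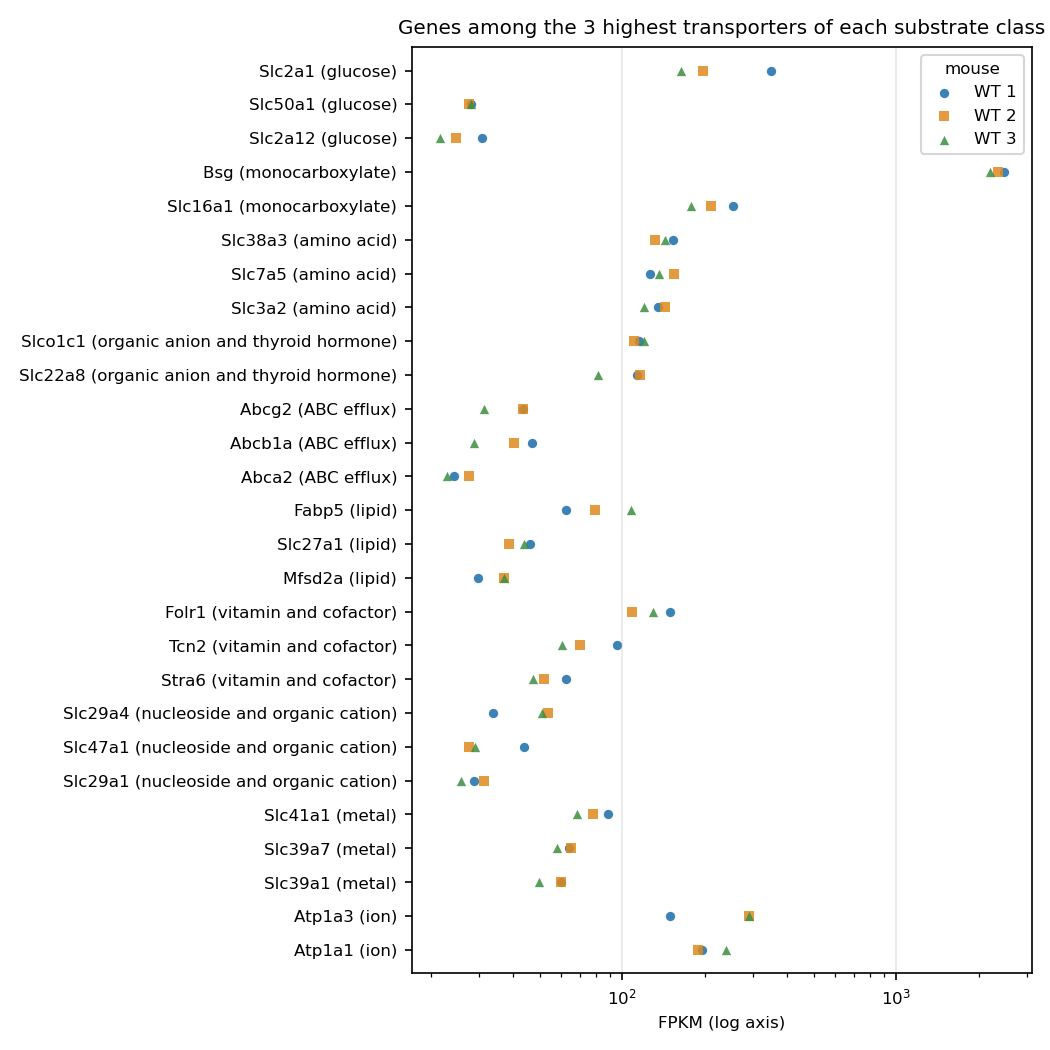
Genes among the 3 highest transporters of each of 10 substrate classes, with FPKM on a log axis and 1 symbol per WT mouse. *Bsg* is listed with the monocarboxylate carriers it escorts and stands near 2343 FPKM, and *Slc2a1* has the widest spread in its class, 164 to 349 FPKM.

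Most genes differed little among the 3 mice. The median coefficient of variation was 19.1%, and 1861 of the 14154 genes (13.1%) spanned at least 2-fold between the highest and the lowest mouse on log2(FPKM + 1). These genes are called variable below. The number depends on the processing: it was 838 to 1050 with 1 mouse left out (838 without WT 1, 1050 without WT 2 and 919 without WT 3), 2817 with a pseudocount of 0.1 in place of 1 and 3226 with the values as TPM, so shares of variable genes are read only against the background under the same rule. Of the 1776 variable genes with an annotated length, 1765 had 95% Poisson intervals that did not overlap between the highest and the lowest mouse, where the intervals cover counting error only. Variable genes were less abundant, with a median mean of 3.55 FPKM against 10.9 FPKM for the others, and the share fell from 26.9% between 1 and 5 FPKM to 8.84% between 5 and 20 FPKM and 4.69% between 20 and 100 FPKM. WT 3 stood apart as the high mouse in 346 variable genes, WT 1 in 290 and WT 2 in 204, and as the low mouse WT 1 in 422, WT 2 in 317 and WT 3 in 282.

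The variable share differed widely between classes of genes. Of 153 transporters over the filter in the 10 substrate classes, 6 were variable (3.92%, against 13.1% of all genes and 8.84% of genes between 5 and 20 FPKM, where the median of the transporters lay). These were *Slc2a1*, *Slc16a11* at 23.0, 31.7 and 11.5 FPKM, the proline carrier *Slc6a20a* at 127, 86.7 and 46.1 FPKM, *Slco4a1* at 4.82, 1.94 and 1.61 FPKM, *Slc27a3* at 2.81, 7.35 and 5.75 FPKM, and the scavenger receptor gene *Cd36* at 5.44, 0.991 and 2.11 FPKM. Over all 261 solute carriers above the filter 24 were variable (9.20%), close to the 8.84%. The lower share thus does not hold over all solute carriers. Of 82 cytosolic ribosomal protein genes 1 was variable (1.22%, against 4.63% of genes between 100 and 1000 FPKM, where their median lay). That gene, *Rpl26*, had 5.23, 2.42 and 46.9 FPKM. The 48 histone genes over the filter held 32 variable genes (66.7%), and all 13 small nucleolar RNA genes were variable. Several of the latter, such as *Snord49b*, *Snord8*, *Snora64* and *Snora17*, passed the filter through 1 mouse and were listed at 0 in the others. For those the call was fixed by the filter, and nothing is read from the count of 13. Small nucleolar RNAs are short, with a median annotated length of 140 bases, and FPKM divides by length.

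Pituitary hormone genes separated WT 3 from the other two mice. All 7 hormone genes examined were variable and highest in WT 3. Of these, 5 were listed at 0 in WT 1 and WT 2 and passed the filter through WT 3 alone, so for them both counts were fixed by the filter and nothing is read from them against the 13.1% and 33.9% of all genes. *Pomc*, the precursor of corticotropin at chr12:3954951-3960642 on the plus strand, measured 4.63, 3.35 and 1413 FPKM. *Gh*, growth hormone, at chr11:106300271-106301865 on the minus strand, was listed at 0 in WT 1 and WT 2 and at 522 FPKM in WT 3. *Cga*, the alpha subunit shared by the glycoprotein hormones, was listed at 0 in WT 1 and WT 2 and at 471 FPKM in WT 3. WT 3 thus held transcripts of *Pomc*, *Gh* and *Cga* at once. The cell types they came from were not examined.

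The beta subunits and prolactin had lower levels with the same pattern. *Lhb*, the luteinising hormone subunit, measured 1.07, 1.70 and 53.3 FPKM. *Tshb*, of thyrotropin, was listed at 0 in WT 1 and WT 2 and at 38.6 FPKM in WT 3, *Fshb*, of follicle-stimulating hormone, likewise at 7.44 FPKM and *Prl*, prolactin, at 9.96 FPKM in WT 3. The sum over the 7 genes was 5.70, 5.05 and 2515 FPKM. *Plvap*, *Cldn3* and *Gnas* were also highest in WT 3, as given above, and so were *Scg2* at 11.1, 11.1 and 86.5 FPKM and *Resp18* at 6.58, 21.7 and 43.4 FPKM, which encode proteins of secretory granules. Of the hypothalamic peptide genes, *Avp*, of vasopressin, had 4.86, 0.684 and 24.3 FPKM, while *Oxt*, of oxytocin, was lowest in WT 3 at 21.6, 8.95 and 6.55 FPKM. *Hcrt*, of hypocretin, had 3.01 FPKM in WT 1 and was listed at 0 in the other two mice. Whether tissue of the gland was collected with the brain of WT 3 was not tested.

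The promoters of the hormone genes were read as a description. Of the 7 genes 6 were matched by symbol in the RefSeq promoter sequences of GRCm38.p6, and *Gh* was not. Each of these 6 held the letters TATAAA on either strand between 250 bases before and 50 bases after the start, against 13.6% of all 32851 promoters. The 150 bases before each start are shown from 5′ to 3′ on the gene's strand, with TATAAA on either strand in capitals, because this is the feature the 6 genes had in common.
Pomc, chr12:3954795-3954944, plus strand: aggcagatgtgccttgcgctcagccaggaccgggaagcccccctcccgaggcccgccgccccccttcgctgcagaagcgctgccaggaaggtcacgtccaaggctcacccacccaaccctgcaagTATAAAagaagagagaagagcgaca
Cga, chr4:34893629-34893778, plus strand: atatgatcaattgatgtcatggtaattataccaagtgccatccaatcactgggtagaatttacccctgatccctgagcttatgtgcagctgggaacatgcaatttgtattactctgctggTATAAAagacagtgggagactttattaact
Lhb, chr7:45420796-45420945, plus strand: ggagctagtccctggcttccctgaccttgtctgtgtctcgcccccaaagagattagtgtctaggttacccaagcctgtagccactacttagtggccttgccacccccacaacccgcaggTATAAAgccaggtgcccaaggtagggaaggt
Tshb, chr3:102782715-102782864, minus strand: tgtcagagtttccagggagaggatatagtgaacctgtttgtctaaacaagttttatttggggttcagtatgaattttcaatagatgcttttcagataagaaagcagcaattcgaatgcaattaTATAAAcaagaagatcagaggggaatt
Fshb, chr2:107059652-107059801, minus strand: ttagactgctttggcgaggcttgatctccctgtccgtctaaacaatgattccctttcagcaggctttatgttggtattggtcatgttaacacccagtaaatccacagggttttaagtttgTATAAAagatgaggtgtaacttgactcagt
Prl, chr13:27057420-27057569, plus strand: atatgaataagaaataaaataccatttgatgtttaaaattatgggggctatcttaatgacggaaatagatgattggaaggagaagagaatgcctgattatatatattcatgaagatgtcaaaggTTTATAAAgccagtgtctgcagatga

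In *Prl* matches to TATAAA on both strands overlapped. Of the other 7 motifs searched on both strands, TATNCAT was found in *Prl* alone (8.84% of all promoters) and CAAGGTC in *Lhb* and *Prl* (3.96%). CANCTG was found in 5 of the 6 genes, but also in 51.4% of all promoters. The letters TGACGTCA were found in 0 of these 6 windows, and so were the CArG box, the TCACACC motif and, last, the letters CCGGAAG. A match is a description of letters and not of a bound site.

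Smooth muscle genes were mostly highest in WT 1. Of 13 genes over the filter in the list, 10 were variable, against 13.1% of all genes and 8.84% of genes between 5 and 20 FPKM, and 10 were highest in WT 1, against 35.9% of all genes. The median over the genes of the ratio of WT 1 to the mean of the other two mice was 2.11. *Acta2*, the smooth muscle actin gene at chr19:34241090-34255590 on the minus strand, measured 252, 107 and 115 FPKM. *Tagln*, which encodes transgelin, at chr9:45929619-45936058 on the minus strand, measured 229, 88.3 and 91.3 FPKM. *Myh11*, the smooth muscle myosin heavy chain gene, had 68.1, 28.5 and 36.4 FPKM. For these genes WT 1 was well above the other two mice, which lay close together.

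WT 1 was also the highest mouse for 7 of the remaining 10 genes, although the other two mice lay apart in some of them. *Tpm2*, a tropomyosin gene, measured 78.9, 38.3 and 40.7 FPKM, *Actg2* 21.997, 8.31 and 12.4 FPKM, *Lmod1*, a leiomodin gene, 13.3, 5.11 and 5.73 FPKM, *Cnn1*, the calponin gene, 11.9, 1.63 and 5.30 FPKM, and *Pln*, the phospholamban gene, 6.62, 2.08 and 1.41 FPKM. *Myl9*, the highest of the list, had 276, 145 and 151 FPKM and just missed the 2-fold rule. *Sncg* was listed at 0 in WT 2 and at 12.5 and 7.36 FPKM in WT 1 and WT 3. *Kcnmb1*, a subunit of the calcium-activated potassium channel, was highest in WT 3 at 3.77 FPKM against 2.76 and 1.09 FPKM, and *Mylk* and *Des* were highest in WT 2 at 23.8 and 20.1 FPKM. Among the 10 genes of this list with a promoter sequence, CANCTG was found in 9, against 51.4% of all promoters, the CArG box in *Myl9* alone (1.63% of all promoters), TATAAA in *Pln* alone (13.6%) and CCGGAAG in *Mylk* alone (8.86%). The remaining 4 motifs had no match in these windows.

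**Figure D4:**
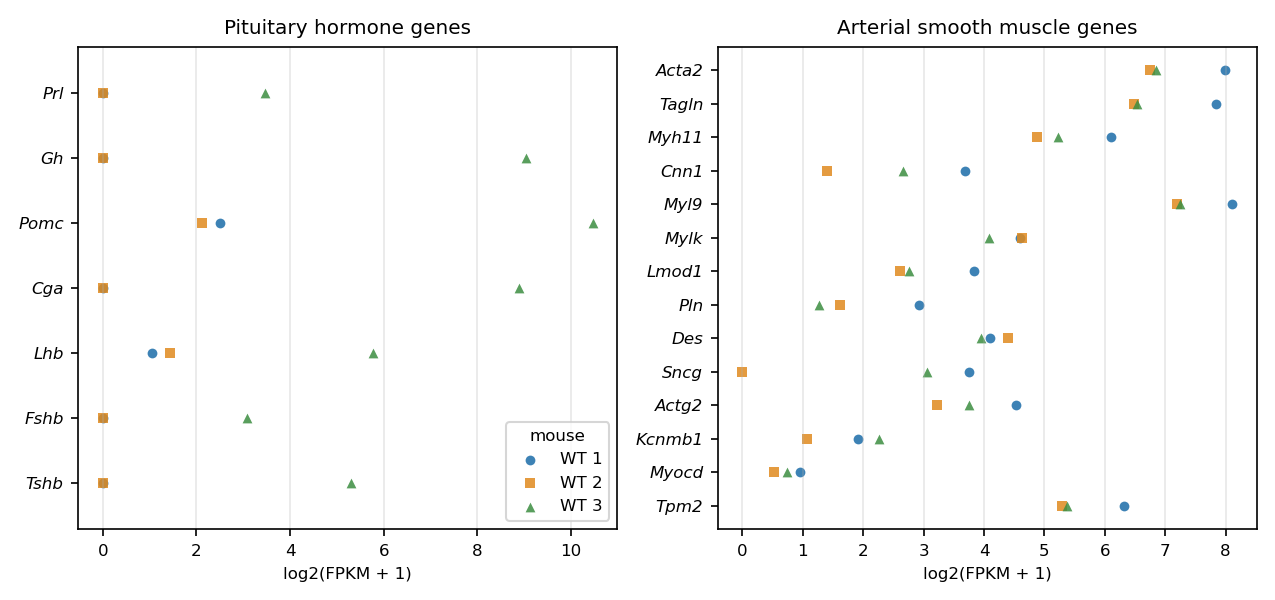
Pituitary hormone genes on the left and arterial smooth muscle genes on the right, with log2(FPKM + 1) on the horizontal axes and 1 symbol per WT mouse. All 7 hormone genes lie highest in WT 3, where *Pomc* reaches 1413 FPKM, and 10 of the 13 muscle genes over the filter lie highest in WT 1.

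Endothelial genes were mostly lowest in WT 3. Of the 29 genes 2 were variable (6.90%, against 13.1% of all genes and 4.69% of genes between 20 and 100 FPKM), *Slc2a1* and *Vwf*, the von Willebrand factor gene, at 107, 73.7 and 44.1 FPKM. WT 3 had the lowest value in 22 of the 29 genes, against 33.3% of all genes, and the median over the genes of the ratio of WT 3 to the mean of the other two mice was 0.767. The list medians of the mice were closer, at 56.4, 51.0 and 50.3 FPKM. In bulk RNA, fewer cells of a type and less RNA per cell cannot be told apart. None of the 12 capillary genes was variable, while 6 of 16 arterial genes (37.5%) and 4 of 12 venous genes (33.3%) were.

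The arterial and venous genes that varied were mostly highest in WT 1. *Gkn3* had 55.6, 33.5 and 27.0 FPKM, *Sema3g* 24.4, 15.4 and 10.7 FPKM, *Bmx* 14.7, 11.8 and 6.31 FPKM, *Fbln5* 64.9, 40.8 and 29.7 FPKM and *Cytl1* 6.72, 1.62 and 0.628 FPKM. The exception was *Stmn2*, also a neuronal marker, which was highest in WT 3 at 35.7, 60.6 and 81.6 FPKM. Of the venous list, the interleukin receptor gene *Il1r1* measured 15.3, 7.09 and 4.80 FPKM and the lipocalin gene *Lcn2* 6.24, 0.480 and 1.62 FPKM.

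Fibroblast, perivascular macrophage and pericyte genes were also mostly lowest in WT 3. Fibroblast genes were lowest in WT 3 in 13 of 14 and highest in WT 1 in 12 of 14, against 33.3% and 35.9% of all genes, and 2 of them (14.3%, close to the 13.1% of all genes) were variable, *Fmod* at 343, 304 and 164 FPKM and *Lum* at 25.03, 14.1 and 11.1 FPKM. All 10 perivascular macrophage genes were lowest in WT 3, against 33.3% of all genes, and 4 were variable, against 13.1%. The scavenger receptor gene *Cd163* had 9.86, 3.48 and 2.91 FPKM, *Cbr2* 31.5, 18.4 and 14.1 FPKM, *Stab1* 27.6, 34.6 and 16.6 FPKM and *Cd209f* 7.05, 5.73 and 0.444 FPKM. Pericyte genes were lowest in WT 3 in 11 of 16, and the 1 variable gene among them, *Cox4i2*, an oxygen-responsive subunit of cytochrome oxidase, ran the other way at 4.81, 9.52 and 19.2 FPKM. Of 19 barrier transcription factor genes 14 were lowest in WT 3, and 1, *Fli1*, was variable at 23.0, 17.8 and 7.56 FPKM.

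Within a mouse each list was also set against the endothelial list, by sums and by medians. The summed pericyte FPKM divided by the summed endothelial FPKM was 0.462, 0.410 and 0.406, and *Vtn* holds much of the pericyte sum. The ratio of the list medians was 0.473, 0.538 and 0.430, so the highest mouse was WT 1 by sums and WT 2 by medians. For smooth muscle the ratio of sums was 0.307, 0.146 and 0.205 and that of medians 0.339, 0.278 and 0.267, both highest in WT 1. For neurons the ratio of sums was 0.499, 0.698 and 1.04 and that of medians 0.371, 0.661 and 0.690, both lowest in WT 1 and highest in WT 3. For astrocytes the ratio of sums was 0.334, 0.266 and 0.389 and that of medians 0.716, 0.530 and 0.697, both lowest in WT 2. For fibroblasts both were highest in WT 1 and lowest in WT 3, with sums at 1.51, 1.33 and 1.28 times the endothelial sum. For erythroid genes the ratio of medians was 0.235, 2.47 and 0.229, and this median rests on the uncertain division of fragments among the globin genes.

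Neuronal genes formed the opposite pattern to the vessel genes. Of 24 genes 20 were highest in WT 3, against 33.9% of all genes, 18 were lowest in WT 1, against 34.1%, and 8 were variable (33.3%, against 13.1% of all genes and 4.69% of genes between 20 and 100 FPKM). *Tubb3*, the neuronal tubulin gene at chr8:123411424-123422015 on the plus strand, measured 35.3, 83.9 and 117 FPKM. *Snap25*, of the synaptic fusion complex, had 26.2, 33.4 and 69.7 FPKM, *Vsnl1* 7.81, 9.52 and 20.9 FPKM and the neurofilament gene *Nefl* 15.2, 24.5 and 35.9 FPKM. *Rbfox3*, the NeuN gene, was lowest in WT 1 as well at 16.8, 35.1 and 32.9 FPKM. The vesicular carrier genes *Slc17a7*, of glutamate, and *Slc32a1*, of GABA, had 73.8, 101 and 105 FPKM and 4.23, 8.85 and 10.9 FPKM. Beside these, all 4 hippocampal genes and 3 of 5 cortical genes, such as *Neurod6* at 5.49, 6.65 and 15.2 FPKM, were highest in WT 3. The part of neuronal RNA in the lower vessel values of WT 3 was not tested.

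Glial lists had other orders of the mice. Astrocyte genes were highest in WT 1 in 13 of 17 and lowest in WT 2 in 12 of 17 (35.9% and 32.6% of all genes were), and the variable genes were *Ntsr2* at 45.7, 14.4 and 27.3 FPKM and *S100b* at 25.1, 16.9 and 11.6 FPKM. Of 20 microglial genes 1 was variable, *Aif1* at 5.31, 6.34 and 12.1 FPKM, and highest values were divided as 5, 8 and 7 genes among the 3 mice. Of 16 oligodendrocyte genes over the filter 5 were variable (31.2%, against 13.1% of all genes and 8.84% of genes between 5 and 20 FPKM), without a common order. *Mal* had 42.4, 17.7 and 16.6 FPKM and *Mog*, a myelin surface protein gene, 4.50, 2.28 and 1.60 FPKM, while *Opalin* had 0, 0.452 and 3.40 FPKM and *Myrf* 1.27, 3.89 and 2.53 FPKM. No ependymal gene was variable, and the choroid plexus list held 2, *Enpp2* and *Prlr*, the prolactin receptor gene at 2.76, 1.03 and 3.43 FPKM.

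**Figure D5:**
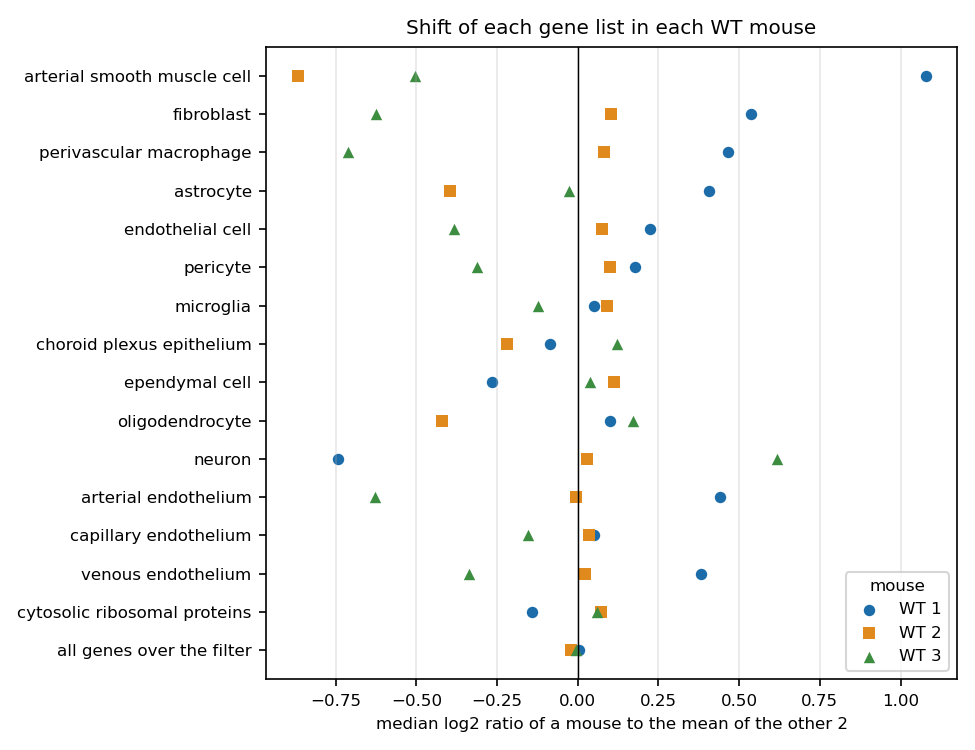
Shift of each gene list in each WT mouse, as the median over the genes of a list of the log2 ratio of that mouse to the mean of the other 2. Smooth muscle genes lie farthest to the right in WT 1, where the ratio is 2.11, neuronal genes lie farther right in WT 3 than the other lists plotted, at 1.53, and all genes over the filter lie at 0.985 to 1.00.

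Among single genes, the largest ranges besides the hormones belonged to small nucleolar RNAs and globins. *Snord8* was listed at 0, 0 and 334 FPKM, *Snora64* at 158, 0 and 0 FPKM, *Snora17* at 0, 0 and 91.3 FPKM, *Snora81* at 19.0, 0 and 80.2 FPKM and *Snora74a* at 54.4, 43.1 and 0 FPKM. *Ndufs5*, a subunit gene of mitochondrial complex I that every cell uses, was listed at 65.4, 0 and 13.5 FPKM, so a listed 0 need not mean that a gene was silent. In all, 240 variable genes were listed at 0 in at least 1 mouse. Among genes over 1 FPKM in every mouse, wide ranges were also seen for *Smim22* at 18.2, 1.89 and 18.8 FPKM, for *Hscb*, an iron-sulphur cluster chaperone gene, at 17.4, 2.07 and 11.7 FPKM, for *Gm7367* at 26.3, 1.29 and 20.4 FPKM and for *8430408G22Rik* at 20.0003, 2.06 and 1.95 FPKM. *Toporsos* and *Epb4.1l4aos*, named as antisense to other genes, had 36.0, 5.66 and 15.6 FPKM and 15.0, 1.83 and 2.14 FPKM, and *Gm17750* had 1.00, 1.27 and 11.2 FPKM.

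Close to the 1 FPKM rule, *Gm10190* with 0.380, 1.54 and 1.08 FPKM, the orexin gene *Hcrt* with 3.01, 0 and 0 FPKM and *Etaa1* with 0.604, 1.04 and 1.36 FPKM lay just inside. *Sox3* with 0.476, 1.06 and 1.46 FPKM, *Casp1* with 0.554, 1.58 and 0.858 FPKM and *1700003F12Rik* with 0.614, 0.392 and 1.99 FPKM lay just outside it.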

How the data were processed

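RNA of brain microvessels was sequenced from 3 WT mice, 1 library per mouse, with the NEBNext Ultra II Directional kit as paired ends. The authors trimmed the reads, mapped them with TopHat and deposited FPKM values for 23183 gene symbols, and per the labels the build was mm10. Read counts and reads were not used here, and the normalization behind the FPKM values beyond depth and length is not given in the sources used here. Values of the 3 WT libraries were used as deposited, with no further scaling. The KO libraries were not used.

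Genes whose mean reached 1 FPKM were kept. A gene was called variable when log2(FPKM + 1) of the highest and lowest mouse differed by at least 1. No test was run, since there is 1 group. Depth was estimated from the steps of values under 0.3 FPKM in genes with a single annotated transcript, so it depends on annotated lengths. Lengths, gene types and coordinates of 22148 symbols came from GENCODE M21 (GRCm38), and promoters from RefSeq GRCm38.p6. 95% intervals are exact Poisson intervals. The steps were tested on simulated data. Python 3.11.15, pandas 2.3.3, numpy 2.4.6, scipy 1.17.1 and matplotlib 3.10.9 were used.

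Named genes were the given markers, the 25 highest, for each list the 4 highest, the defining markers and those variable or listed at 0, the 12 widest ranges overall and the 12 with 1 FPKM or more in every mouse, the 10 highest transporters and 3 genes on each side of the threshold. Other list genes were named for their role. The members and lists were chosen with earlier results of these data known. Some genes that meet these rules are not reported here, and the counts and medians include them. Mitochondrially encoded genes were not analysed here. Alternatives were another pseudocount, other filters, median scaling, values as TPM and leaving out each mouse.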

Additional observations from a re-analysis of the deposited data

How the results depend on the processing

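Of 106 alternative values, 82 stayed within 1 SD between mice, or within 1.5 times for a count, and 24 did not. The SD came from the same 3 mice, and the gene medians were nearly equal at 9.53, 9.47 and 9.46 FPKM. Leaving out 1 mouse or median scaling could thus move few of these values, and nothing is read from the 82. The number of variable genes, 1861, was 838 to 1050 with 1 mouse left out, where fewer mice leave a smaller range, 2817 with a pseudocount of 0.1, 3226 as TPM and 715 with a filter at a mean of 5 FPKM. With TPM the pseudocount and the filter stayed at 1 on the larger values, and 15425 genes met the filter. The part of each in the rise was not tested. As TPM, all values are 2.25 to 2.35 times higher, so the list medians were 126 for endothelial cells, 60.7 for pericytes, 35.9 for arterial smooth muscle, 77.8 for astrocytes, 32.3 for microglia, 29.6 for perivascular macrophages, 64.4 for neurons, 16.3 for oligodendrocytes, 17.4 for their precursors, 191 for erythroid cells, 2.59 for leukocytes and platelets, 82.0 for choroid plexus, 73.8 for ependyma and 422 for fibroblasts. Without genes under 1 FPKM, the oligodendrocyte median was 11.6 FPKM and the leukocyte median 2.81 FPKM. The erythroid median, 84.95 FPKM, ranged from 12.4 FPKM without WT 2 to 127 FPKM without WT 3, and the ependymal median, 32.2 FPKM, from 33.2 FPKM without WT 3 to 37.1 FPKM without WT 1. Median scaling moved no value beyond these limits. Without WT 3 the endothelial median was 53.7 FPKM and without WT 1 the smooth muscle median was 13.8 FPKM. The counts of genes highest or lowest in a mouse for the neuronal list (20 and 18 of 24) and for perivascular macrophages (10 of 10 lowest in WT 3) were the same under median scaling and as TPM. No paired analysis was possible because a single group was described and no result came from a test. Depth limits statements on genes near 0.3 FPKM, and 3 mice limit every SD.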

Other observations

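Gene programs that react to handling, stress and hormones were also expressed in the WT microvessels. Of 20 immediate early genes 19 were over 1 FPKM, with *Jund* at 89.8 ± 4.74 FPKM and *Klf2* at 49.0 ± 8.85 FPKM (SD, n = 3), whereas *Fos*, a gene induced within minutes by many stimuli, had 2.13, 4.17 and 3.73 FPKM in the order of the mice, and *Arc* 2.27 ± 0.159 FPKM. The inducible heat shock genes *Hspa1a* and *Hspa1b* had 3.66 ± 1.62 and 2.41 ± 0.556 FPKM, against 951 ± 89.5 FPKM for the constitutive *Hspa8*. Clock genes were expressed with *Per1* at 22.3, 23.0 and 23.1 FPKM and *Dbp* at 21.5, 21.4 and 18.5 FPKM. Of 16 clock genes 2 were variable (12.5%, close to the 13.1% of all genes), among them the repressor gene *Nr1d1* at 14.3, 34.7 and 31.7 FPKM.

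Glucocorticoid-responsive genes were highest in WT 1 in 12 of 13, against 35.9% of all genes, and 2 were variable (15.4%, close to the 13.1% of all genes). *Tsc22d3*, which encodes the glucocorticoid-induced leucine zipper, had 59.5, 36.1 and 29.1 FPKM, *Sult1a1* 54.7, 41.7 and 21.6 FPKM, *Fkbp5* 37.3, 22.4 and 27.6 FPKM and the metallothionein gene *Mt1* 228, 171 and 194 FPKM. Interferon and MHC class I genes were highest in WT 1 in 10 of 16, with *B2m* at 226, 154 and 166 FPKM and *Oas1a*, the 1 variable gene, at 3.20, 0.986 and 1.81 FPKM. The inflammation genes *Sele*, *Il6* and *Il1b* were listed at 0 in all 3 mice, while the adhesion genes *Vcam1* and *Icam1* had 28.5 ± 6.12 and 16.3 ± 5.37 FPKM.

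The Y-linked genes *Ddx3y* and *Eif2s3y* had 25.4, 22.4 and 23.3 FPKM and 18.3, 23.3 and 21.4 FPKM, and *Xist*, expressed from the inactive X chromosome of females, had 0.280, 0.172 and 0.0630 FPKM. Of region markers, *Ppp1r1b*, a striatal gene, had 92.3 ± 24.0 FPKM and the hippocampal gene *Neurod2* 20.3 ± 7.33 FPKM, while *Pcp2*, the cerebellar Purkinje cell gene, was listed at 0 in all 3 mice.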
